A study of Homo sapiens with 6 samples.

Results

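The genes described here are 10 genes that are widely used to mark or maintain stem-like cells: CD44, CD24, PROM1 (CD133), THY1 (CD90), ENG (CD105), CD9 and ALCAM (CD166) at the cell surface, and POU5F1 (OCT4), BMI1 and MYB in the nucleus. They were taken by gene name from a table of 29185 genes, and all 10 were listed in it. The table comes from SKOV3, an established human ovarian cancer cell line, and holds 3 RNA-seq libraries of cells with a knockdown of KLF5 (sh-KLF5) and 3 of control cells (sh-NC). KLF5 is a zinc-finger transcription factor of the Krüppel-like family. The sh-KLF5 cells were a stable line made with a lentiviral short hairpin vector (pLKO.1-EGFP-Puro) and puromycin, and the labels give the genotype of the control cells as WT, whereas the study names them sh-NC. No drug treatment or time point is given for either group, and both were sequenced from polyA RNA. The sources used here name neither the hairpin sequence behind these libraries nor separate cultures, so a group stands for 1 engineered line and the p-values measure only the spread between its libraries, which may be technical.

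Stem-cell surface markers are membrane proteins that were chosen because antibodies against them enrich cells able to self-renew or to seed tumours. They have unrelated molecular tasks. CD44 binds hyaluronan, ENG is a co-receptor for ligands of the TGF-beta family, CD9 organises membrane microdomains, and ALCAM, THY1 and CD24 take part in cell adhesion. The nuclear genes act on transcription: POU5F1 is a core pluripotency factor, BMI1 belongs to the Polycomb repressive complex that keeps developmental genes silent, and MYB drives the proliferation of progenitor cells. In ovarian cancer, CD44, CD24, PROM1 and THY1 are commonly used to enrich cancer stem cells.

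Sequences before transcription starts are shown for BMI1, ENG and ALCAM, because they are the members whose RNA level changed and for which RefSeq (GRCh38.p14) gives a start with unannotated sequence before it. The letters CACCC, a core that Krüppel-like factors bind but not their only one, and GGGCGG, the GC box, are in capitals, as are GGGTG and CCGCCC, the same letters on the other strand. Each line runs 5′ to 3′ on the strand of the gene, over the 250 bases before the start, and the ENG line ends after 152 bases, where an annotated exon begins. The positions are chr10:22320849-22321098 (+ strand) for BMI1, chr9:127854757-127854908 (- strand) for ENG and chr3:105366659-105366908 (+ strand) for ALCAM.
BMI1: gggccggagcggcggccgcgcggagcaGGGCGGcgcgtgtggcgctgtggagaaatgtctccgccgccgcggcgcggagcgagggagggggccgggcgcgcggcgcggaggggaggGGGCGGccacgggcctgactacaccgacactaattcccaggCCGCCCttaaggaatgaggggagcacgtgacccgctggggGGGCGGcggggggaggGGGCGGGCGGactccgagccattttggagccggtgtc
ENG: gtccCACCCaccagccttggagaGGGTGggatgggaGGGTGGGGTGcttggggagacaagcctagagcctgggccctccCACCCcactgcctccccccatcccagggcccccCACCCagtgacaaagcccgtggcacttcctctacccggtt
ALCAM: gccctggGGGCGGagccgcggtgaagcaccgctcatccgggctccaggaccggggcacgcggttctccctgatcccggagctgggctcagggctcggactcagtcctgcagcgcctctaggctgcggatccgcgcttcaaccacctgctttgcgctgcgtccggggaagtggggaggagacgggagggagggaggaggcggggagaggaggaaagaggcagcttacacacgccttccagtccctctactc
The BMI1 stretch held 6 GC boxes and 0 CACCC cores, with 2 of the boxes sharing letters. The window before a second BMI1 start (chr10:22321706-22321955) held 5 GC boxes and 1 CACCC core. The ENG stretch, of 152 bases, held 6 CACCC cores and 0 GC boxes. The ALCAM stretch held 1 GC box. Of the 10 genes, 8 had an entry in the promoter table, with 17 starts in all, and THY1 and POU5F1 had none. CACCC was found before at least 1 start of 7 of these genes and GGGCGG before at least 1 start of 7. Over 35116 promoter windows of 250 bases, 54.7% held CACCC and 42.6% held GGGCGG. The counts are per gene over any of its starts and the shares are per window, so they cannot be set against each other. A match is a description of the letters and not a binding site.

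Depth was close between the groups, with 15852319 to 17543896 reads recovered per sh-NC library and 16009859 to 16871350 per sh-KLF5 library. The silenced gene KLF5 had normalized counts of 4371, 4425 and 4494 in sh-NC 1 to 3 and of 1745, 1440 and 1436 in sh-KLF5 1 to 3 (log2 fold change -1.53, limma adjusted p = 2.47e-07). Normalized counts are reads per gene scaled by a size factor for each library. The library sh-KLF5 1 stood apart from the other libraries of its group. Its chi-square per degree of freedom over all genes was 23.5 against sh-KLF5 2 and 30.4 against sh-KLF5 3, compared with 10.4 between sh-KLF5 2 and 3 and 4.33 to 8.41 within sh-NC. Results that rest on it are given with and without it.

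The labels call the cells ovarian cancer cells, and keratin RNA of epithelial cells was abundant in every library. The 6 epithelial markers (EPCAM, KRT7, KRT8, KRT18, KRT19 and CDH1) were all above 3 reads in some library and summed to normalized counts of 51699 to 63361 in sh-NC and 26955 to 36873 in sh-KLF5, with KRT8 called lower. KRT7, KRT8 and KRT18 carried most of this sum, and KRT19 had normalized counts of 1.97 to 16.5. KRT7 (log2 fold change -0.78, limma adjusted p = 0.00112) and KRT18 (-0.64, limma adjusted p = 0.00343) also fell. EPCAM (limma adjusted p = 0.954), CDH1 (limma adjusted p = 0.645) and KRT19 (limma adjusted p = 0.285) did not pass the test. Of the ovarian carcinoma markers analysed here, PAX8, MUC16, MSLN and FOLR1 summed to 632.6 to 739 in sh-NC and 399.5 to 586 in sh-KLF5. MUC16 (CA125) was called lower, with a log2 fold change of -1.54 (limma adjusted p = 0.00737), and MSLN fell by 0.71 on the log2 scale (limma adjusted p = 0.00868) but missed the threshold without sh-NC 3 (limma adjusted p = 0.052). PAX8 did not pass the test and was present in every library, FOLR1 was too low to be tested, and WT1 and SOX17 were not analysed here.

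Of the 10 genes, 9 had enough reads for a test. THY1 was almost lost after KLF5 silencing. ALCAM fell to 55.9% of its control mean, whereas CD44, ENG and BMI1 rose to 153%, 159% and 162% of theirs. POU5F1, CD24, CD9 and MYB did not pass the test, and PROM1 had almost no reads in either group. A gene was said to rise or fall when its adjusted p in limma was under 0.05, and was called when its log2 fold change was also above 1 or below -1. Only THY1 was called among the 9 tested genes, and it was lower, against 5.28% of all 15803 tested genes called in either direction and 3.37% called lower. Adjusted p under 0.05 was reached by 5 of the 9 genes, 2 lower and 3 higher, against 12.9% of all tested genes. In 5 of the 9 genes the groups did not overlap, against 31.3% of all tested genes. The median log2 fold change of the 9 genes was -0.16, and that of all tested genes was -0.00232. THY1 passed the filter on low counts through its sh-NC libraries alone, so these counts are descriptions of a chosen list.

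**Figure D1:**
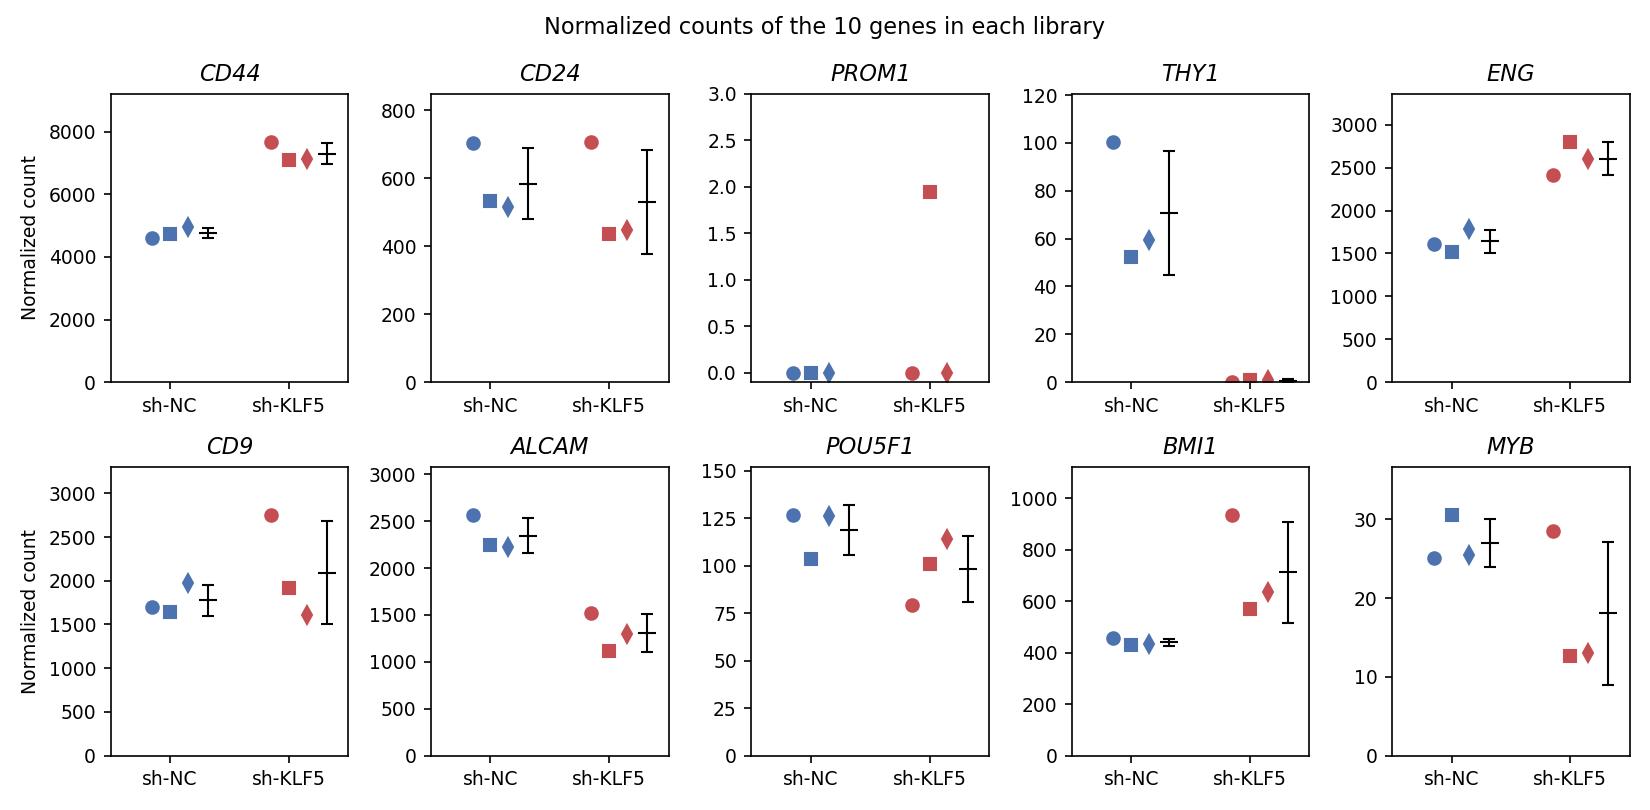
Normalized count (vertical axis, starting at 0 except for PROM1, and scaled per gene) of the 10 genes in the 3 sh-NC libraries (blue) and the 3 sh-KLF5 libraries (red). Circles, squares and diamonds are libraries 1, 2 and 3, and bars show the mean and SD of a group, which are not drawn for PROM1. The groups are separate for CD44, THY1, ENG, ALCAM and BMI1.

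CD44, the main receptor for hyaluronan, had the highest mean level per length of the genes in both groups. Its range overlapped that of CD9 in sh-NC and that of ENG in sh-KLF5. The gene (ENSG00000026508) lies at chr11:35138870-35232402 of GRCh38, the build used throughout, on the + strand, with 39 annotated transcripts and 10004 exonic bases. Normalized counts of CD44 were 4618, 4741 and 4947 in the libraries sh-NC 1 to 3 and 7683, 7085 and 7119 in sh-KLF5 1 to 3. Every sh-KLF5 library was above every sh-NC library, and the libraries of a group lay close together. The means were 4769 ± 166 and 7296 ± 336 (SD, n = 3), a log2 fold change of 0.61 (SE 0.11, 95% interval 0.38 to 0.84, limma adjusted p = 0.000985). Fits without a library gave values from 0.58 to 0.64. Gene-level counts do not separate the standard isoform of CD44 from its splice variants.

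ENG, a co-receptor for TGF-beta family ligands that is also used to define mesenchymal stromal cells, rose by a similar fold. The gene (ENSG00000106991) lies at chr9:127815012-127854756 on the - strand, directly after the sequence with the CACCC cores shown above. The sh-NC libraries 1 to 3 had normalized counts of 1614, 1519 and 1786, and the sh-KLF5 libraries 1 to 3 had 2414, 2803 and 2596. The lowest sh-KLF5 library was well above the highest sh-NC library. The means were 1640 ± 135 and 2604 ± 195 (SD, n = 3), a log2 fold change of 0.67 (SE 0.12, 95% interval 0.42 to 0.91, limma adjusted p = 0.00083). Leaving out single libraries gave 0.61 to 0.73, all past the threshold. On the other strand, AL162586.1 overlaps 7.95% of the exonic bases of ENG, and reads of the strands cannot be told apart here. AL162586.1 had mean normalized counts of 37.0 in sh-NC and 52.8 in sh-KLF5 and did not pass the test (limma adjusted p = 0.37).

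BMI1, a RING-finger subunit of Polycomb repressive complex 1, was higher in all sh-KLF5 libraries, although these differed among themselves. The gene (ENSG00000168283) is at chr10:22321211-22331484 on the + strand. It had normalized counts of 456, 430 and 435 in sh-NC 1 to 3 and 934, 568 and 634 in sh-KLF5 1 to 3. The sh-NC libraries differed little, and sh-KLF5 1 was far above sh-KLF5 2 and 3. The means were 440 ± 14.1 and 712 ± 195 (SD, n = 3), with a log2 fold change of 0.66 (SE 0.16, 95% interval 0.32 to 1.0, limma adjusted p = 0.0116). Without sh-KLF5 1 the log2 fold change was 0.45 (limma adjusted p = 0.00958). It missed the threshold without sh-NC 2 (0.64, limma adjusted p = 0.0575) and without sh-NC 3 (0.65, limma adjusted p = 0.0628). On the same strand, 23.3% of the exonic bases of BMI1 are shared with the read-through gene COMMD3-BMI1, which was not analysed here. COMMD3, the upstream partner of that read-through, had a log2 fold change of 0.07 (limma adjusted p = 0.894).

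ALCAM, an immunoglobulin-family adhesion molecule that binds CD6 and itself, fell. ALCAM (ENSG00000170017) lies at chr3:105366909-105576900 on the + strand, and no other annotated exon overlaps its own. Normalized counts of ALCAM were 2564, 2251 and 2224 in libraries sh-NC 1 to 3 and 1520, 1111 and 1301 in sh-KLF5 1 to 3. The highest sh-KLF5 library was below the lowest sh-NC library. The means were 2346 ± 189 and 1311 ± 204 (SD, n = 3), a log2 fold change of -0.85 (SE 0.13, 95% interval -1.12 to -0.57, limma adjusted p = 0.000269). The fold change lay between -0.96 and -0.74 when any library was left out, with adjusted p under 0.05 in each of the 6 fits.

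THY1, a small glycoprotein on a lipid anchor that marks fibroblasts, mesenchymal stromal cells and neurons, fell to the edge of detection. THY1 (ENSG00000154096) lies at chr11:119417378-119424985 on the - strand. It had 108, 53 and 56 reads in sh-NC 1 to 3, or normalized counts of 100.6, 52.2 and 59.4. In sh-KLF5 1 to 3 it had 0, 1 and 1 reads, or normalized counts of 0, 0.970 and 1.003. All sh-KLF5 libraries were under 3 reads, which is what 0 counted reads can still hide, and all sh-NC libraries were far above it. Over the groups, 217 reads stood against 2, a ratio of 108 (exact 95% counting interval 29.5 to 895, counting error only), so that 0.928% of the control reads were left. The fitted log2 fold change was -5.45 (SE 0.51, 95% interval -6.52 to -4.37, limma adjusted p = 1.96e-06). Its size depends on the pseudocount and is no bound, being -6.05 with a pseudocount of 0.5 and -3.70 with 5. It stayed between -5.63 and -5.12 when single libraries were left out. Among the exonic bases of THY1, 10.7% are overlapped by AP003396.5 on the other strand, and reads of the strands cannot be told apart here because strand-aware counting is not stated.

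RNA came from whole cultures, so fewer cells that express a gene and less of its RNA per cell cannot be told apart. Several other fibroblast genes were lower together with THY1. The 8 fibroblast markers (COL1A1, COL1A2, COL3A1, DCN, LUM, PDGFRA, PDGFRB and FAP) were all above 3 reads in some library, and their normalized counts summed to 1157 to 1667 in sh-NC and 527 to 1044 in sh-KLF5. PDGFRA, COL1A2, COL3A1 and DCN were called lower, FAP was called higher, COL1A1 and LUM did not pass the test, and PDGFRB was too low to be tested. As with THY1, PDGFRA and COL1A2 passed the filter on low counts through their sh-NC libraries alone. PDGFRA, a growth factor receptor of fibroblasts, had normalized counts of 92.2, 69.0 and 59.4 in sh-NC 1 to 3 and of 0, 0 and 2.01 in sh-KLF5 1 to 3. The part of these cells or genes in the result for THY1 was not tested.

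THY1, ENG and NT5E (CD73) together define mesenchymal stromal cells, and they did not move as a group. NT5E had normalized counts of 380, 325 and 365 in sh-NC 1 to 3 and 584, 458 and 576 in sh-KLF5 1 to 3 (log2 fold change 0.59, limma adjusted p = 0.00934), and missed the threshold without sh-NC 2 (adjusted p = 0.0724). Of 6 markers that such cells should lack (PTPRC, CD34, CD14, ITGAM, CD79A and HLA-DRA), PTPRC was at or under 3 reads in every library. CD14 made up most of the rest, so that the 6 markers summed to 164 to 228 in sh-NC and 205 to 413 in sh-KLF5. The endothelial markers analysed here (PECAM1, CDH5, VWF, TIE1 and TEK) summed to 74.5 to 88.1 in sh-NC and 46.1 to 86.4 in sh-KLF5, with CDH5 and TIE1 at or under 3 reads. TEK was called higher from few reads (limma adjusted p = 0.0442), and passed the filter on low counts through its sh-KLF5 libraries alone. It missed the threshold with edgeR (adjusted p = 0.0585), DESeq2 (adjusted p = 0.0786) and TMM factors (adjusted p = 0.0604), and in 5 of the 6 fits with a library left out, all but that without sh-NC 1 (adjusted p up to 0.167), and scaling by library size alone gave an adjusted p of 0.05. The leukocyte markers analysed here (PTPRC, CD14, ITGAM and LYZ) summed to 149.8 to 222 in sh-NC and 195 to 381 in sh-KLF5, and PTPRC and LYZ were at or under 3 reads. A further endothelial and a further leukocyte marker were not analysed here.

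The genes whose pattern over the 6 libraries was most like that of THY1, among 15559 genes with a mean of at least 10 reads, were CCDC144NL-AS1, MAGED1 and CXXC4. Likeness was the mean absolute difference of the log2 values after each gene was centred, and it was 0.136, 0.194 and 0.217 for these genes. CCDC144NL-AS1 had 83, 69 and 58 reads in sh-NC 1 to 3 and 0, 1 and 1 in sh-KLF5 1 to 3. MAGED1 had 294, 193 and 201 reads in sh-NC 1 to 3 and 2, 8 and 7 in sh-KLF5 1 to 3. CXXC4 had 161, 121 and 94 reads in sh-NC 1 to 3 and 1, 2 and 3 in sh-KLF5 1 to 3. They were picked for their likeness to THY1, so the shared high and low values follow from the choice and are no separate result. As with THY1, they passed the filter on low counts through their sh-NC libraries alone.

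POU5F1, the gene of the pluripotency factor OCT4, was expressed at a low level and its groups overlapped. POU5F1 (ENSG00000204531) lies at chr6:31164337-31180731 on the - strand. Normalized counts of POU5F1 were 127, 103 and 126 in libraries sh-NC 1 to 3 and 79.5, 101 and 114 in sh-KLF5 1 to 3. One sh-KLF5 library, sh-KLF5 3, lay above the lowest sh-NC library. The means were 119 ± 13.3 and 98.2 ± 17.6 (SD, n = 3), and the log2 fold change was -0.28 (SE 0.20, 95% interval -0.71 to 0.15, limma adjusted p = 0.416). The interval leaves room for a fall as well as for no change. No alternative and no left-out library brought POU5F1 past the threshold, with log2 fold changes from -0.40 to -0.14 when libraries were left out. Near-identical copies can share reads with POU5F1, and POU5F1B, POU5F1P3, POU5F1P4, POU5F1P5 and POU5F1P6 had at most 11 reads in any library. The exons of TCF19 on the other strand overlap 8.56% of those of POU5F1, and TCF19 did not pass the test (limma adjusted p = 0.434). Gene-level counts do not separate the isoforms of POU5F1.

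CD24, a short, heavily glycosylated protein on a lipid anchor that is combined with CD44 in stem-cell gates, had normalized counts of 705, 533 and 517 in sh-NC 1 to 3 and 708, 436 and 448 in sh-KLF5 1 to 3. Library 1 was the highest in both groups, and sh-KLF5 1 exceeded every sh-NC library while sh-KLF5 2 and 3 were below all of them. The log2 fold change was -0.16 (SE 0.18, 95% interval -0.54 to 0.22, limma adjusted p = 0.614). Without sh-KLF5 1 it was -0.39 and passed the threshold narrowly (limma adjusted p = 0.0474). The pseudogene CD24P2 had at most 1 read in any library. CD24 (ENSG00000272398) lies at chr6:106969831-106975627 on the - strand.

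CD9, a tetraspanin that joins integrins and other receptors in the membrane, had normalized counts of 1705, 1643 and 1980 in sh-NC 1 to 3 and 2751, 1921 and 1606 in sh-KLF5 1 to 3. The sh-KLF5 libraries lay on both sides of the control range, with sh-KLF5 1 the highest of all and sh-KLF5 3 the lowest. The means were 1776 ± 180 and 2093 ± 591 (SD, n = 3), with a log2 fold change of 0.20 (SE 0.16, 95% interval -0.14 to 0.55, limma adjusted p = 0.462). Without sh-KLF5 1 it was -0.01 (limma adjusted p = 0.963). CD9 (ENSG00000010278) lies at chr12:6199715-6238271 on the + strand.

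MYB, a transcription factor of progenitor cells, was barely expressed. MYB (ENSG00000118513) lies at chr6:135181315-135219173 on the + strand, with 42 annotated transcripts. MYB had normalized counts of 25.1, 30.5 and 25.5 in sh-NC 1 to 3 and 28.5, 12.6 and 13.0 in sh-KLF5 1 to 3. The library sh-KLF5 1 lay within the control range and the other sh-KLF5 libraries below it. The log2 fold change was -0.65 (SE 0.38, 95% interval -1.46 to 0.16, limma adjusted p = 0.307), and it was -1.02 without sh-KLF5 1 (limma adjusted p = 0.0824). MYB had 82 reads over the sh-NC group and 54 over sh-KLF5.

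PROM1, the pentaspan membrane protein CD133, had 0 reads in 5 of the 6 libraries and 2 reads in sh-KLF5 2. PROM1 (ENSG00000007062) lies at chr4:15963076-16084378 on the - strand. All libraries were under the 3 reads that a count of 0 allows, which corresponded to normalized counts of 2.79 to 3.18 per library, so it was not tested and no fold is given. Its paralog PROM2 was also low, with normalized counts of 1.02 to 5.91.

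**Figure D2:**
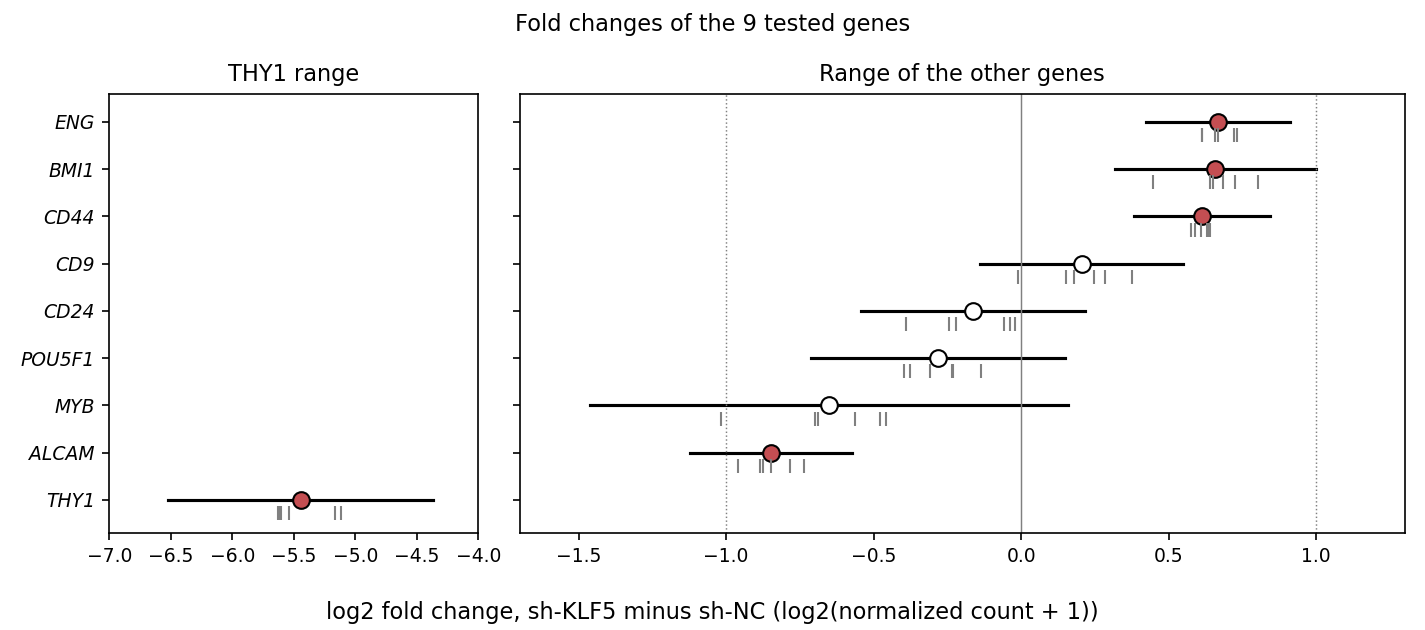
Log2 fold change of the 9 tested genes on the scale log2(normalized count + 1), sh-KLF5 minus sh-NC, with its 95% interval (line). THY1 is drawn in the left panel on its own axis range. Filled points have an adjusted p under 0.05, dotted lines mark -1 and 1, and grey ticks below each point are the 6 values with 1 library left out. ENG, BMI1 and CD44 lie between 0.61 and 0.67, ALCAM at -0.85 and THY1 at -5.45, and a tick of CD9 falls below 0.

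The library sh-KLF5 1 affected the members unequally. The ratio of its normalized count to the mean of sh-KLF5 2 and 3 was 2.23 for MYB, 1.60 for CD24, 1.56 for CD9, 1.55 for BMI1 and 1.26 for ALCAM. It was 1.08 for CD44, 0.894 for ENG and 0.739 for POU5F1. Over 10659 tested genes with a mean above 100 normalized counts the median of this ratio was 1.01, and 14.7% of them were above 1.3. Thus MYB, CD24, CD9 and BMI1 were above a ratio of 1.3. CD44, ENG, BMI1, ALCAM and THY1 passed the threshold with and without this library.

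**Figure D3:**
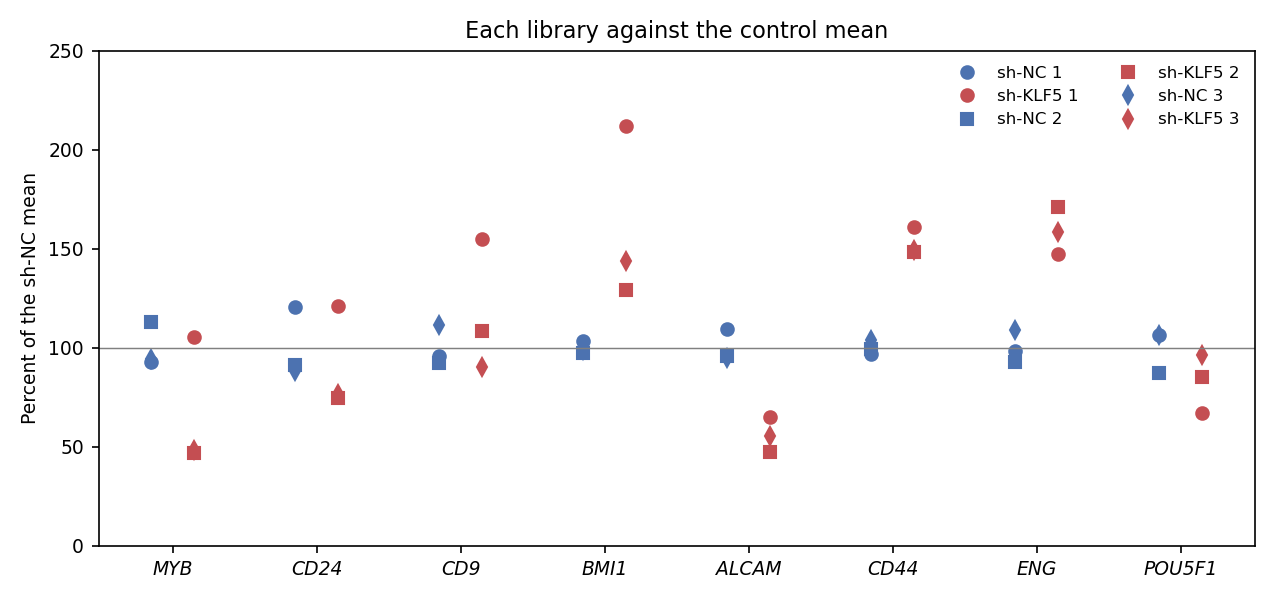
Normalized count of 8 genes in each library as a percent of the sh-NC mean (vertical axis, horizontal line at 100), with sh-NC in blue, sh-KLF5 in red and a symbol per library number. The red circle of sh-KLF5 1 stands at 105 for MYB and 121 for CD24, near or above 100, whereas the other red symbols of these genes lie between 46.6 and 76.6.

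The order of the genes by level was compared as normalized count per kb of exon. The length counted all annotated exons of a gene and not the isoforms expressed, so the order depends on it. In sh-NC the means ran from CD44 (477 ± 16.6), CD9 (426 ± 43.1) and ENG (417 ± 34.3) through ALCAM (327 ± 26.4), CD24 (189 ± 33.6) and BMI1 (103 ± 3.28) to POU5F1 (41.0 ± 4.58), THY1 (11.9 ± 4.40), MYB (4.92 ± 0.552) and PROM1 (0), each with its SD over 3 libraries. The ranges of CD44 and CD9 overlapped, as did those of CD9 and ENG, while all other neighbours in this order were separate. Among tested genes in sh-NC, CD44 stood at percentile 91 of the level per kb, POU5F1 at 37.9, THY1 at 17.3 and MYB at 6.93. The 5 genes with the highest level were surface markers, whereas THY1 and PROM1 stood below BMI1 and POU5F1.

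In sh-KLF5 the level per kb was 729 ± 33.6 for CD44, 662 ± 49.5 for ENG, 502 ± 142 for CD9, 183 ± 28.5 for ALCAM, 171 ± 49.7 for CD24, 166 ± 45.5 for BMI1, 33.9 ± 6.06 for POU5F1, 3.29 ± 1.65 for MYB and 0.111 ± 0.0962 for THY1. ENG stood above CD9 and MYB above THY1, both the reverse of the order in sh-NC. The ranges of CD44 and ENG, ENG and CD9, ALCAM and CD24, CD24 and BMI1, and THY1 and PROM1 overlapped. The overlaps of ENG with CD9 and of ALCAM with CD24 came from sh-KLF5 1 alone. In sh-KLF5 2 and 3, ENG stood at 712 and 660 per kb against 461 and 386 for CD9, and ALCAM at 155 and 181 against 141 and 145 for CD24.

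**Figure D4:**
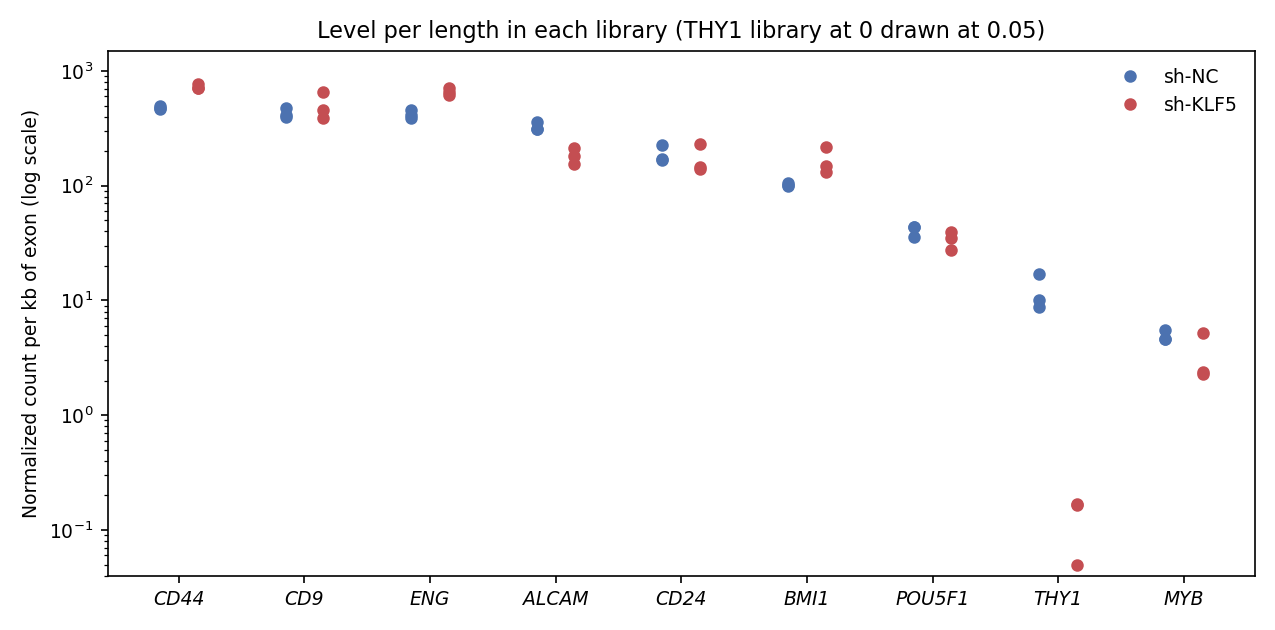
Normalized count per kb of exon (vertical axis, log scale) of 9 genes in each library, sh-NC in blue and sh-KLF5 in red, ordered by the sh-NC mean. The THY1 library with 0 reads is drawn at 0.05 and PROM1 is left out. THY1 drops from a sh-NC mean of 11.9 to a sh-KLF5 mean of 0.111.

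The pathways and complexes around the members were followed through 8 lists with 139 genes in all, of which 105 were tested. In them 5 genes were called higher and 2 lower, together 6.67% of the tested list genes against 5.28% of all tested genes. Among these called genes, LIN28B, ESRP1 and GATA3 passed the filter on low counts only through the group in which they were high. The counts are therefore descriptions. An adjusted p under 0.05 was reached by 28 list genes, or 26.7% against 12.9% of all tested genes, and 13 of the 28 kept it in all 6 fits with a library left out. The other 15, named below with the libraries concerned, kept their direction in those fits but missed the threshold. Lists are given as counts, which stand beside 12.9% of all tested genes with an adjusted p under 0.05 and 5.28% called. No list was tested as a whole.

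Among the 8 tested pluripotency factors, 3 rose, 2 fell and 3 did not pass the test (median log2 fold change 0.21). LIN28B, which blocks maturation of let-7 microRNAs, had normalized counts of 190, 122 and 125 in sh-NC 1 to 3 and 7.13, 5.82 and 8.02 in sh-KLF5 1 to 3. Its groups were far apart, with a log2 fold change of -4.18 (SE 0.30, limma adjusted p = 1.58e-07), and it was called lower. KLF2 (0.73, limma adjusted p = 0.00394), TBX3 (0.66, limma adjusted p = 0.00311) and KLF4 (0.54, limma adjusted p = 0.0164), transcription factors that help to maintain naive pluripotency, rose, and KLF4 missed the threshold without sh-NC 2, sh-NC 3 or sh-KLF5 2 (adjusted p up to 0.116). TFCP2L1 fell by 0.68 on the log2 scale (limma adjusted p = 0.0392), and missed the threshold without sh-NC 2, sh-NC 3, sh-KLF5 2 or sh-KLF5 3 (adjusted p up to 0.224). The genes with the highest counts in the list were SALL4 (log2 fold change 0.10, limma adjusted p = 0.662) and MYC (0.32, limma adjusted p = 0.241). LIN28A, ESRRB, UTF1 and NR5A2 had too few reads for a test. SOX2, NANOG, DPPA2, DPPA4, ZFP42, PRDM14 and TDGF1 were not analysed here.

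Of 12 other tested surface markers of stem cells, 3 rose, 4 fell and 5 did not pass the test (median log2 fold change 0.04). ABCG2, the drug efflux pump behind the side population, was called higher, with normalized counts of 93.1, 59.1 and 61.5 in sh-NC 1 to 3 and 158, 130 and 157 in sh-KLF5 1 to 3. Its log2 fold change was 1.07 (SE 0.22, limma adjusted p = 0.00294), close to the fold threshold. The call was lost without sh-NC 2 (log2 fold change 0.96) and without sh-NC 3 (0.985). L1CAM, a neural adhesion molecule, fell by 0.96 on the log2 scale (limma adjusted p = 5.71e-05). ITGA6, the integrin chain of many stem-cell sorts, fell by 0.87 (limma adjusted p = 6.77e-05), CD55 by 0.80 (limma adjusted p = 0.000271) and PODXL by 0.68 (limma adjusted p = 0.00117). CD47, the signal against phagocytosis, rose by 0.50 (limma adjusted p = 0.0284), but missed the threshold without any 1 of the sh-NC libraries (adjusted p up to 0.116), and NT5E is given above. ITGB1 had the highest counts of the list and a log2 fold change of 0.10 (limma adjusted p = 0.623). EPCAM, MCAM, PROCR and FUT4 did not pass the test either. KIT, CXCR4 and VCAM1 were not analysed here.

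All 23 Polycomb genes around BMI1 were tested, of which 2 fell and 21 did not pass the test (median log2 fold change -0.01), against 12.9% of all tested genes with an adjusted p under 0.05. Limma called 0 of the 23, against 5.28% of all tested genes called. Called genes also numbered 0 with limma at unadjusted p, 0 with edgeR and 0 with DESeq2. The genes that fell were CBX2, which reads methylated histones (-0.48, limma adjusted p = 0.0277), and EZH2, the methyltransferase of Polycomb repressive complex 2 (-0.40, limma adjusted p = 0.0362). Both missed the threshold without any 1 of the sh-NC libraries, and EZH2 also without sh-KLF5 2 (adjusted p up to 0.138 and 0.179). SUZ12 and PHC3, with the highest counts, had log2 fold changes of 0.04 and -0.17 (limma adjusted p = 0.911 and 0.406).

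Around CD9, 3 of 20 tested tetraspanins and partners rose and 17 did not pass the test (median log2 fold change 0.11). This is near the 12.9% of all tested genes with an adjusted p under 0.05. TSPAN5, which carries the sheddase ADAM10 through the cell, was called higher. It had normalized counts of 110, 114 and 104 in sh-NC 1 to 3 and 434, 375 and 359 in sh-KLF5 1 to 3, with a log2 fold change of 1.82 (SE 0.16, limma adjusted p = 8.02e-07). CD63, a tetraspanin of late endosomes and exosomes, rose by 0.64 on the log2 scale (limma adjusted p = 0.00288). TSPAN4 rose by 0.43 (limma adjusted p = 0.0386), although only the fit without sh-KLF5 1 kept it past the threshold among those with a library left out (adjusted p up to 0.213). PTGFRN, a direct partner of CD9, had a log2 fold change of -0.01 (limma adjusted p = 0.973).

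Around CD44, 3 of 16 tested genes of the hyaluronan axis, its anchors, sheddases and splicing regulators rose, 1 fell and 12 did not pass the test (median log2 fold change 0.19). CEMIP, which takes part in hyaluronan breakdown, was called higher. It had normalized counts of 302, 334 and 270 in sh-NC 1 to 3 and 1153, 1586 and 793 in sh-KLF5 1 to 3, with a log2 fold change of 1.91 (SE 0.19, limma adjusted p = 6e-06). ESRP1, an epithelial splicing factor that favours the variant exons of CD44, was called higher from few reads, 7, 9 and 7 in sh-NC 1 to 3 and 33, 16 and 20 in sh-KLF5 1 to 3. Its log2 fold change was 1.42 (SE 0.44, limma adjusted p = 0.0418), and of the fits with a library left out only that without sh-KLF5 2 kept it past the threshold (adjusted p up to 0.15). HMMR, a second hyaluronan-binding protein, rose by 0.55 (limma adjusted p = 0.0109), and missed the threshold without sh-NC 1 or sh-NC 3 (adjusted p up to 0.0754). EZR, which ties the tail of CD44 to actin, fell by 0.43 (limma adjusted p = 0.0421), but missed the threshold without any 1 of the sh-NC libraries or without sh-KLF5 2 (adjusted p up to 0.15). The related anchor MSN had a log2 fold change of -0.14 (limma adjusted p = 0.48). LYVE1 was not analysed here.

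Around ENG, 3 of 13 tested signalling partners rose, 1 fell and 9 did not pass the test (median log2 fold change 0.09). Limma called 0 of them, against 5.28% of all tested genes called, and 1 at unadjusted p. With edgeR 0 were called and with DESeq2 1, ID2. TGFBR2, the type II TGF-beta receptor, had normalized counts of 679, 526 and 670 in sh-NC 1 to 3 and 1400.4, 1158 and 1082 in sh-KLF5 1 to 3. Its groups were separate, and its log2 fold change of 0.96 (SE 0.14, limma adjusted p = 0.000156) was just under the fold threshold. TGFBR1 rose by 0.50 (limma adjusted p = 0.0254), and missed the threshold without sh-NC 2 or sh-NC 3 (adjusted p up to 0.127). ID3, a target of BMP signalling, rose by 0.78 (limma adjusted p = 0.00533), and had a log2 fold change of 0.82 without sh-KLF5 1 that missed the threshold (limma adjusted p = 0.115). ACVR2B fell by 0.73 (limma adjusted p = 0.0133), and missed the threshold without sh-NC 1 (adjusted p = 0.0759). ID1 and BMPR2, with the highest counts, had log2 fold changes of -0.37 and 0.11 (limma adjusted p = 0.118 and 0.637). ACVRL1, the endothelial partner of ENG, had at most 2 reads in any library, and the ligands GDF2 and BMP10 were not analysed here.

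Of the ligands and integrins bound by THY1, ALCAM or CD24, 5 of 10 were tested, with 1 higher, 2 lower and 2 that did not pass the test (median log2 fold change -0.12). ITGB2, the shared chain of the leukocyte integrins, was called lower, with normalized counts of 118, 64.0 and 84.9 in sh-NC 1 to 3 and 26.5, 37.8 and 21.1 in sh-KLF5 1 to 3. Its log2 fold change was -1.61 (SE 0.30, limma adjusted p = 0.00139). Its partners ITGAM and ITGAX had too few reads for a test. L1CAM, given above, was the other gene that fell. ITGB5 rose by 0.42 (limma adjusted p = 0.0213), and missed the threshold without any 1 of the sh-NC libraries or without sh-KLF5 2 (adjusted p up to 0.132). ITGAV, with the highest counts, had a log2 fold change of -0.12 (limma adjusted p = 0.678). CD6, the ligand of ALCAM on T cells, and the CD24 ligands SIGLEC10 and SELP had too few reads for a test.

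Around MYB, 1 of 10 tested family members, cofactors and targets rose and 9 did not pass the test (median log2 fold change 0.09). This too is near the 12.9% of all tested genes with an adjusted p under 0.05. GATA3 was called higher from few reads, 10, 7 and 5 in sh-NC 1 to 3 and 27, 17 and 33 in sh-KLF5 1 to 3. Its log2 fold change was 1.68 (SE 0.44, limma adjusted p = 0.0171), and it missed the threshold without sh-NC 2, sh-NC 3 or sh-KLF5 3 (adjusted p up to 0.0779). MYBL2, the cell-cycle paralog of MYB, had normalized counts of 4658, 5280 and 6087 in sh-NC 1 to 3 and 2537, 3605 and 5499 in sh-KLF5 1 to 3, with overlapping groups (log2 fold change -0.52, limma adjusted p = 0.164). Its log2 fold change was -0.25 without sh-KLF5 1 (limma adjusted p = 0.389) and -0.81 without sh-KLF5 3 (limma adjusted p = 0.00206). MYBL1 (0.08, limma adjusted p = 0.81) and the coactivator EP300 (-0.28, limma adjusted p = 0.201) did not pass the test.

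**Figure D5:**
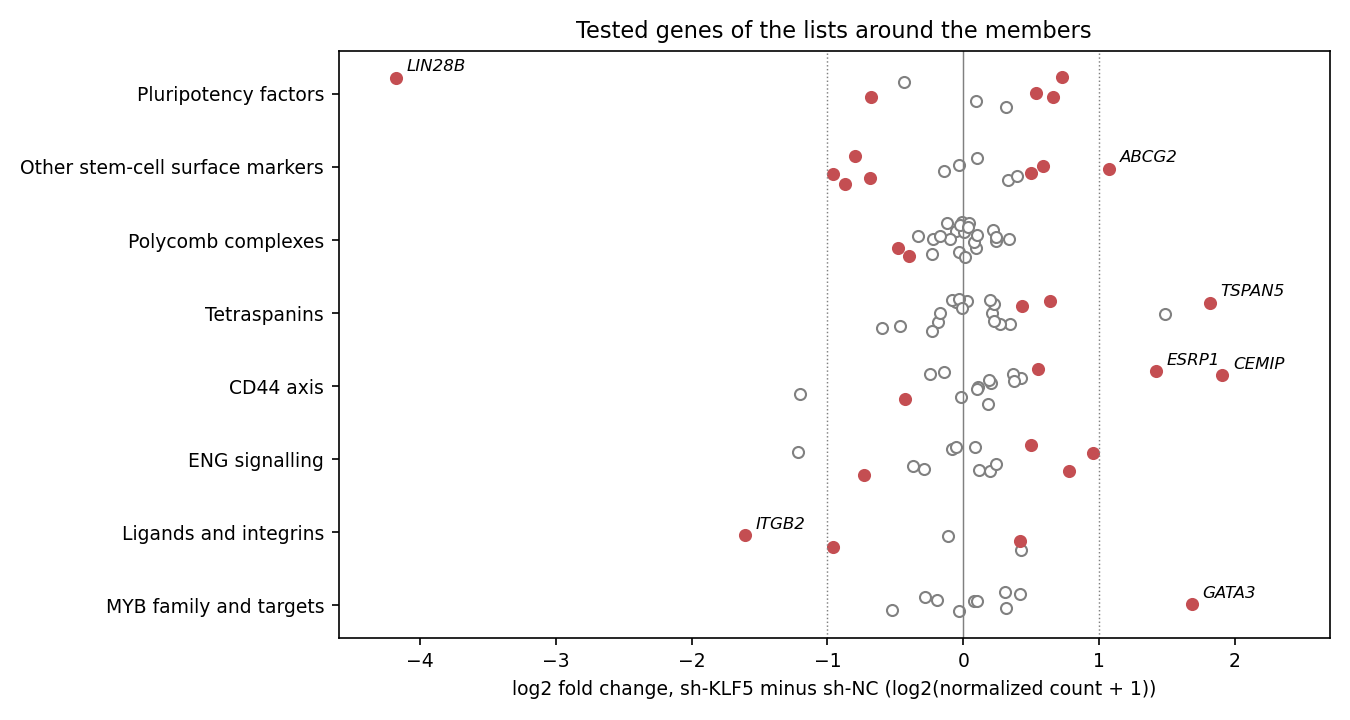
Log2 fold change (horizontal axis, sh-KLF5 minus sh-NC, log2(normalized count + 1)) of every tested gene in the 8 lists around the members, 1 row per list with points spread vertically for legibility. Filled red points have an adjusted p under 0.05, open points do not, dotted lines mark -1 and 1, and the 7 called genes are named. Most Polycomb genes lie close to 0, and LIN28B lies alone at -4.18.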

How the data were processed

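RNA-seq libraries of SKOV3 cells, 3 sh-NC and 3 sh-KLF5, were grouped by their labels. The authors deposited 1 table with a normalized signal per gene and library, that is, reads scaled by a size factor for each library. The submitters' processing notes name HISAT2 2.0.5, featureCounts 1.5.0-p3, DESeq2 1.20.0 and hg38, and the annotation is not given in the sources used here. The deposited table also holds the authors' group means, their log2 fold change, their p-values and the length of each gene, and of these only the length was used. Deposited lengths and coordinates matched GENCODE 29 on GRCh38 for 100% of genes.

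In each library 100% of the values were whole multiples (tolerance 1e-06) of the smallest value other than 0, and these multiples were taken as reads. Since these values are normalized, limma 3.58.1 (R 4.3.3, trend and robust options) was used on log2(normalized count + 1), a scale that makes changes of genes with few reads look smaller. Genes were kept by filterByExpr of edgeR 4.0.16 (minimum count 10), leaving 15803. P-values were Benjamini-Hochberg adjusted over all of them, and called genes had an adjusted p under 0.05 together with an absolute log2 fold change over 1. An exact permutation test of 3 against 3 libraries cannot go below p = 0.1. Alternatives were edgeR and DESeq2 1.42.0 on the recovered reads, other scalings, pseudocounts and filters, the replicate number as a block, and leaving out each library. The code was tested on simulated data. Promoter letters came from RefSeq (GRCh38.p14), and figures from matplotlib 3.10.9 in Python 3.11.15.

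The members, lists and rules were chosen with earlier results of these data known. Named were all members, the called genes of each list (up to 5) and its 2 further genes with the highest counts, and KLF5. Some overlapping genes, paralogs, the 3 genes most like a called member, and markers were named too. Other list genes with an adjusted p under 0.05, and list genes named as not passing the test, were chosen after their values were seen.
A gene that the mesenchymal stromal negative and leukocyte lists shared was left out of both and is not reported here.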

Additional observations from a re-analysis of the deposited data

How the results depend on the processing

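THY1 was the 1 member called in every alternative except the filter for at least 10 reads in every library, which by construction left THY1 untested and gave 0 called members. Under that filter 231 genes were called lower and 3 list genes higher. Without any filter 811 genes were called lower, against 533. Without the fold threshold 5 members passed, with 955 genes higher and 1083 lower over all genes, and with unadjusted p-values 4 list genes were lower. Leaving out 1 library at a time gave 2 to 5 list genes called higher, with 2 (CEMIP and TSPAN5) without sh-NC replicate 2. With a library left out, the log2 fold change of CD9 ranged from -0.0108 (without sh-KLF5 1) to 0.377. Genes near 0 also changed sign in such fits, namely SUZ12 (-0.146 to 0.151), PTGFRN (-0.0406 to 0.0222), BMPR2 (-0.0402 to 0.217) and ITGAV (-0.288 to 0.0201). The cause of these changes was not tested. For the members, 80 values from other alternatives and 50 with a library left out kept their direction and their side of the threshold. Same-numbered libraries deviated together only weakly (correlations 0.059, 0.0331 and 0.0504), which does not settle whether the numbers mark pairs. With the replicate block 1 member was called, and 327 genes were higher and 567 lower. ID1 and MYBL2 passed the adjusted p threshold with the block (0.0279 and 0.00234) and without a filter (0.0293 and 0.003). At this depth PROM1 did not pass the filter on low values.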
